A study of Mus musculus with 12 samples.

Results

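The genes described here are 32 mouse genes of sterol and fatty acid synthesis, out of 24421 genes in the deposited count table. They were chosen by name: 18 enzymes of cholesterol synthesis, 7 genes that regulate or handle sterols, 1 gene of the geranylgeranyl branch and 6 enzymes of fatty acid synthesis. All 32 were found in the table, and all 32 passed the filter on low counts that left 14497 genes for testing. RNA sequencing libraries came from E14 mouse embryonic stem cells that carry dCas_Alkbh5, by its name a dCas protein combined with Alkbh5, an m6A RNA demethylase. The 12 libraries form 3 groups of 4, which differ only in the transfected guide plasmid by their labels: Mycn-gRNA2, Mycn-gRNA3, and a guide without a target (NT). Every group, NT included, carried dCas_Alkbh5, was kept in 8 µg/mL blasticidin for 3 days to select for the plasmid, and then spent 5 days in 200 nM INK128, an mTOR inhibitor that brings these cells into a paused state. The comparison asks how these lipid genes stood when dCas_Alkbh5 was given a Mycn guide in paused cells. Whether the 4 libraries of a group are separate cultures is not stated, so the p-values reflect only how these libraries vary, which may be technical.

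Cholesterol is built from acetyl-CoA through mevalonate, farnesyl diphosphate, squalene and lanosterol. Fatty acids are built from citrate-derived acetyl-CoA by acetyl-CoA carboxylase and fatty acid synthase. Both routes are controlled by the SREBP transcription factors, which are held in the endoplasmic reticulum by SCAP and INSIG proteins while sterols are plentiful, and are carried to the Golgi and cut free by the site-1 and site-2 proteases when sterols are low. mTOR signalling is known to favour SREBP activity, and the inhibitor was present in all groups here.

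Libraries held 17248564 to 33819855 endogenous reads, and 1.04% to 1.61% of all reads fell on the synthetic ERCC RNAs that had been added to RNA from equal numbers of cells. Levels are given on 2 scales: CPM with TMM scaling, which are relative to the transcriptome, and reads per 1000 ERCC reads. Mycn, the gene named by the guides, stood at 136 to 146 CPM in NT, 205 to 262 CPM under Mycn-gRNA2 and 257 to 292 CPM under Mycn-gRNA3, so its RNA was higher in every guide library than in every NT library. The stem cell markers Pou5f1 and Nanog averaged 985 and 489 CPM in NT. The 9 stem cell markers listed summed to 4874 to 5393 CPM in NT, 3901 to 4583 CPM under Mycn-gRNA2 and 4631 to 4810.2 CPM under Mycn-gRNA3. Every guide library lay below every NT library on this scale. With both guides relative to the transcriptome, 0 of 9 were called higher and 2 lower, beside 14.9% and 13% of all tested genes. Per ERCC read, 3 were called higher and 0 lower, beside 56.4% and 0.931%. The 7 defining genes of hepatocytes and adipocytes summed to at most 0.348 CPM in any library. The summed level of 14 primitive endoderm markers was 361 to 475 CPM in NT, 484 to 629 CPM under Mycn-gRNA2 and 545 to 635 CPM under Mycn-gRNA3. With both guides, 8 of the 12 tested markers were higher and 1 lower relative to the transcriptome, and 10 higher and 0 lower per ERCC read. The summed level of 14 fibroblast or feeder markers, most of it Fn1, was 2133 to 2574 CPM in NT, 1942 to 2169 CPM under Mycn-gRNA2 and 1654 to 2089.7 CPM under Mycn-gRNA3. Of 10 tested markers, 5 were higher and 2 lower with both guides relative to the transcriptome, and 5 higher and 0 lower per ERCC read. Lum and Postn were near absent in every group. Each had 0 reads in NT, Lum had 2 under Mycn-gRNA2 and 5 with Mycn-gRNA3, and Postn had 4 and 2, over the 4 libraries of a group. The 4 Y-linked genes checked summed to 0.0448 to 0.181 CPM in NT against 32.4 to 83.7 CPM and 46.1 to 63.5 CPM with the guides, so the NT libraries differ from the others in more than the guide, and the culture and the guide cannot be told apart in any comparison with NT. The part of the stem cell, endoderm and fibroblast markers in the results was not tested. Mycn-gRNA2 replicate 1 stood apart from its group: it was the lowest for 25 of the 32 lipid genes and the highest for 5. Within NT, replicate 4 was the lowest for 20 members and replicate 3 for 11, while replicate 2 was the highest for 18. With Mycn-gRNA3, replicate 1 was the lowest for 20 members and replicate 2 the highest for 18.

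Relative to the transcriptome, 5 of the 32 genes rose with the Mycn guides and 0 fell. The 5 were Sqle, Cyp51 and Dhcr7 of cholesterol synthesis, the SREBP escort gene Scap, and Acaca, which encodes the carboxylase that commits acetyl-CoA to fatty acids. A gene was called when its adjusted p was under 0.05 in edgeR's quasi-likelihood test over all 14497 genes. The 5 genes are 15.6% of the members, beside 14.9% of all tested genes called higher and 13% called lower, a share near the background and therefore not a result about these genes as a group. An unadjusted p under 0.05 was reached by 14 members in the higher and 1 in the lower direction. The share of all genes at that threshold was not counted, so this is not a result about the group. DESeq2 called 6 higher and 1, Mbtps1, lower, beside 15.6% and 13.9% of all tested genes. The log2 fold change was positive for 27 of 32 members, with a median of 0.19 beside -0.003 over all tested genes and a range from -0.12 to 0.64. All members in both directions are drawn in the plot of fold changes.

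**Figure D1:**
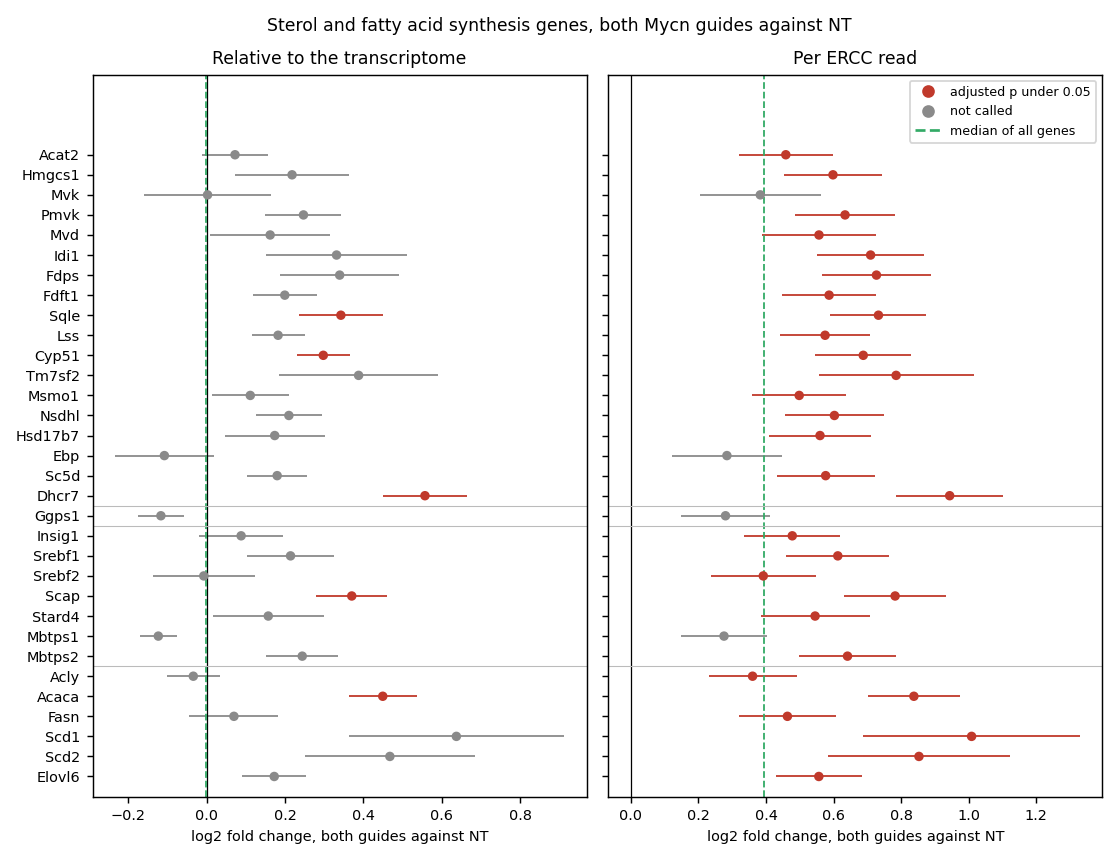
Log2 fold changes of the 32 genes, both Mycn guides against NT, with the standard error of the fit as a bar, relative to the transcriptome (left) and per ERCC read (right). Rows are grouped by role, red marks an adjusted p under 0.05, and the dashed line is the median of all tested genes: 5 genes are red on the left and 28 on the right.

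Without Mycn-gRNA2 replicate 1, 14 members were called higher (Pmvk, Mvd, Fdps, Fdft1, Sqle, Lss, Cyp51, Tm7sf2, Dhcr7, Srebf1, Scap, Mbtps2, Acaca and Scd2) and 2 lower (Ggps1 and Mbtps1). The background rose as well in that fit, in which 21.9% of all tested genes were called higher and 20.2% lower.

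**Figure D2:**
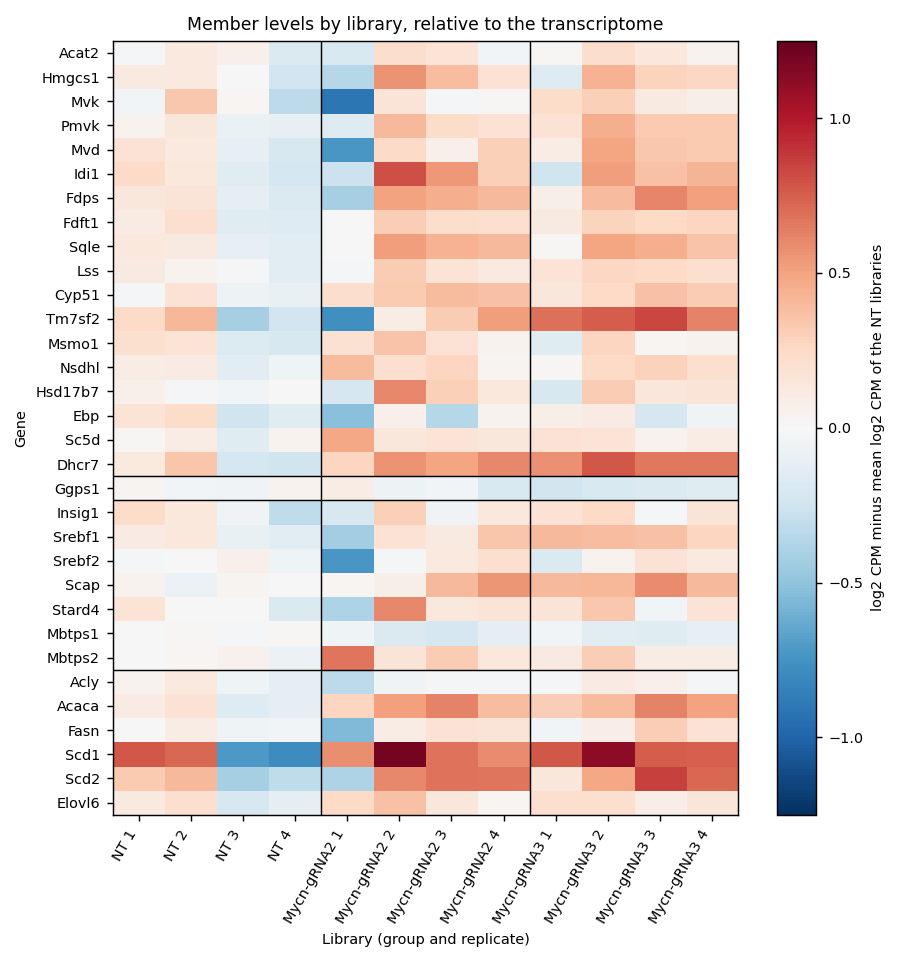
Level of each of the 32 genes in each of the 12 libraries, as log2 CPM minus the mean log2 CPM of the 4 NT libraries. The column of Mycn-gRNA2 replicate 1 holds the bluest cell (Mvk), and Scd1 splits the NT libraries into 2 high and 2 low.

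In the early, mevalonate part of the pathway (Acat2, Hmgcs1, Mvk, Pmvk, Mvd, Idi1 and Fdps) 0 genes were called with both guides together. Of all tested genes, 14.9% were called higher and 13% lower. No difference between parts of the pathway was tested. Hmgcs1, which makes HMG-CoA, stood at 125, 126, 116 and 98.0 CPM in NT replicates 1 to 4, at 90.4, 171, 151 and 131 CPM under Mycn-gRNA2 and at 104, 157, 140 and 139 CPM under Mycn-gRNA3. Of the 8 guide libraries, 6 lay above every NT library and 1 below. The log2 fold change was 0.22 ± 0.15 (SE, edgeR adjusted p = 0.289). Pmvk, the phosphomevalonate kinase, averaged 16.4 ± 1.33 CPM in NT (SD, n = 4) and 19.5 ± 2.43 CPM in the guide libraries (SD, n = 8), with 7 of 8 guide libraries above all of NT and a log2 change of 0.25 ± 0.10 (SE, edgeR adjusted p = 0.0726). With Mycn-gRNA3 alone Pmvk rose by 0.32 ± 0.11 in log2 units (SE, edgeR adjusted p = 0.0436), a call that was lost without any of 7 libraries (replicate 1, 3 or 4 of NT, 3 of Mycn-gRNA2, or 2, 3 or 4 of Mycn-gRNA3), with an adjusted p up to 0.12. Mvk, Mvd and Acat2, for mevalonate kinase, the decarboxylase and the thiolase of the first step, had log2 fold changes of 0.002, 0.16 and 0.07, and the lowest level of Mvk and of Mvd was in Mycn-gRNA2 replicate 1, at 6.30 and 12.5 CPM. Idi1, the isopentenyl diphosphate isomerase, and Fdps, the farnesyl diphosphate synthase, had log2 fold changes of 0.33 ± 0.18 and 0.34 ± 0.15 (SE) that were not called. Ggps1 diverts farnesyl diphosphate to the geranylgeranyl groups that anchor small GTPases. It stood at 40.0 to 42.6 CPM in NT, 36.2 to 44.0 CPM under Mycn-gRNA2 and 35.1 to 37.0 CPM with Mycn-gRNA3. All Mycn-gRNA3 libraries lay below all of NT, but the share of all genes apart from NT with either guide alone was not counted. The log2 fold change of Ggps1 with both guides was -0.12 ± 0.06 (SE, edgeR adjusted p = 0.151), which was not called.

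From squalene onward, 3 of the 11 enzymes rose, beside 14.9% of all tested genes. Sqle encodes squalene monooxygenase, which oxidises squalene and is a known control point of the pathway, and lies at chr15:59315092-59331193 (mm10, plus strand, 11 listed exons). Its level was 53.1, 52.5, 45.2 and 44.1 CPM in NT, 48.6, 69.9, 65.4 and 64.2 CPM under Mycn-gRNA2, and 49.0, 68.2, 66.5 and 62.2 CPM with Mycn-gRNA3. Replicate 1 of each guide lay within the NT range and the other 6 guide libraries above it. Sqle rose by 0.34 ± 0.11 in log2 units (SE, edgeR adjusted p = 0.0289), and the call was lost without NT replicate 3 or 4, Mycn-gRNA2 replicate 3 or Mycn-gRNA3 replicate 2 or 3 (adjusted p up to 0.0998).

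Cyp51 encodes lanosterol 14-alpha-demethylase, which takes the first methyl group off lanosterol, and lies at chr5:4080674-4104697 (minus strand, 10 listed exons). Its level was 37.5, 43.0, 36.2 and 35.6 CPM in NT, 44.3, 47.5, 49.9 and 49.0 CPM under Mycn-gRNA2, and 41.9, 45.2, 49.1 and 47.4 CPM with Mycn-gRNA3. Only Mycn-gRNA3 replicate 1 fell within the NT range, below NT replicate 2. Cyp51 rose by 0.30 ± 0.07 (SE, edgeR adjusted p = 0.00535), and was called with each guide alone (0.33 and 0.27). The call with Mycn-gRNA3 alone was lost when replicate 3 or 4 of NT or of Mycn-gRNA3 was left out (adjusted p up to 0.0679).

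Dhcr7 encodes the reductase that makes cholesterol from 7-dehydrocholesterol, the last step of its branch, and lies at chr7:143823167-143848410 (plus strand, 9 listed exons). Its level was 20.2, 23.5, 15.9 and 15.6 CPM in NT, 22.3, 27.3, 26.0 and 28.0 CPM under Mycn-gRNA2, and 27.5, 31.7, 29.2 and 29.2 CPM with Mycn-gRNA3. Only Mycn-gRNA2 replicate 1 overlapped with NT. Dhcr7 rose by 0.56 ± 0.11 (SE, edgeR adjusted p = 0.00194), the largest log2 fold change among the 5 called members. With Mycn-gRNA2 the change was 0.46 and with Mycn-gRNA3 0.65, both called. The call with Mycn-gRNA2 alone was lost without replicate 3 or 4 of NT or replicate 4 of Mycn-gRNA2 (adjusted p up to 0.0662).

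The promoter windows of Cyp51 and Dhcr7 are shown because both genes rose and both windows hold a CCAAT box, the site of the factor NF-Y, which is known to act with SREBPs. Windows run from 250 bases before to 50 bases after an annotated start, from RefSeq on GRCm38.p6, and 26 of the 32 genes had one. Lower case is the plain sequence, 5′ to 3′ on the gene's strand. Capitals mark CCAAT on either strand (CCAAT or ATTGG), and further below also CACGTG and TCACNCCA, none of which overlaps another in the windows printed.
Cyp51, chr5:4104648-4104947, minus strand: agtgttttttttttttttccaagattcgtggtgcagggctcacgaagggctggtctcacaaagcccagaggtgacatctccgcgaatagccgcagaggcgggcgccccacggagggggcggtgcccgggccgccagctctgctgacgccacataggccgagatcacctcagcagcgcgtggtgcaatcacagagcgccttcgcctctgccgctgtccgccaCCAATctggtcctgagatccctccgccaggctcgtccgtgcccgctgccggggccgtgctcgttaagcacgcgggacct
Dhcr7, chr7:143829964-143830263, plus strand: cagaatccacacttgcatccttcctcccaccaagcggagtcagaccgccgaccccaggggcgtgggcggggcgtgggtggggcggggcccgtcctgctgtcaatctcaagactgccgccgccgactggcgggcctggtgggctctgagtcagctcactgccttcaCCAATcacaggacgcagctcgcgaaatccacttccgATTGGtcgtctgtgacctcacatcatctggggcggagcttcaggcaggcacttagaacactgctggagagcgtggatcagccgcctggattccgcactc
The Cyp51 window holds 1 CCAAT match and this Dhcr7 window 2, one on each strand. Dhcr7 has other annotated starts in RefSeq, whose windows hold no CCAAT match. The windows of Scap and Acaca, which also rose, hold 0, and Sqle had no window. More matches were found for members that were not called, such as Mvk with 5 and Hmgcs1 and Nsdhl with 4 each. CCAAT was found in at least one window of 20 of the 26 genes. Counted by window, it was found in 21 of the members' 32 windows, beside 37.4% of all 32851 windows. GGGCGG, a GC box that is not marked, was likewise found for 20 of 26 genes, in 23 of the members' 32 windows and in 35.7% of all windows.

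The other enzymes from squalene onward were not called with both guides. Tm7sf2, a sterol C14-reductase, stood at 5.14, 5.83, 3.28 and 3.69 CPM in NT, 2.56, 4.65, 5.43 and 6.27 CPM under Mycn-gRNA2, and 7.02, 7.36, 7.82 and 6.73 CPM with Mycn-gRNA3. All Mycn-gRNA3 libraries lay above all of NT, and the Mycn-gRNA2 libraries spanned the NT range and beyond on both sides. The share of all genes apart from NT with either guide alone was not counted. Tm7sf2 rose with Mycn-gRNA3 by 0.69 ± 0.23 (SE, edgeR adjusted p = 0.037), a call that was lost without NT replicate 3 or 4 or any one of the Mycn-gRNA3 libraries (adjusted p up to 0.113). Its exons overlap Vps51 on the same strand, so its reads are uncertain. Lss, which closes squalene epoxide into lanosterol, had 7 of 8 guide libraries above all of NT and a log2 change of 0.18 ± 0.07 (SE, edgeR adjusted p = 0.0585). Fdft1, the squalene synthase, and Sc5d, Nsdhl, Msmo1 and Hsd17b7, which trim and desaturate the sterol rings, had log2 fold changes from 0.11 (Msmo1) to 0.21 (Nsdhl). Ebp, the sterol isomerase, had a log2 change of -0.11 ± 0.13 (SE), with 0 guide libraries above all of NT and 2 below. Fdft1 overlaps Ctsb and Lss overlaps 4930483K19Rik on the other strand, and no source used here gives the strand setting of the counting, so reads of these pairs cannot be told apart.

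**Figure D3:**
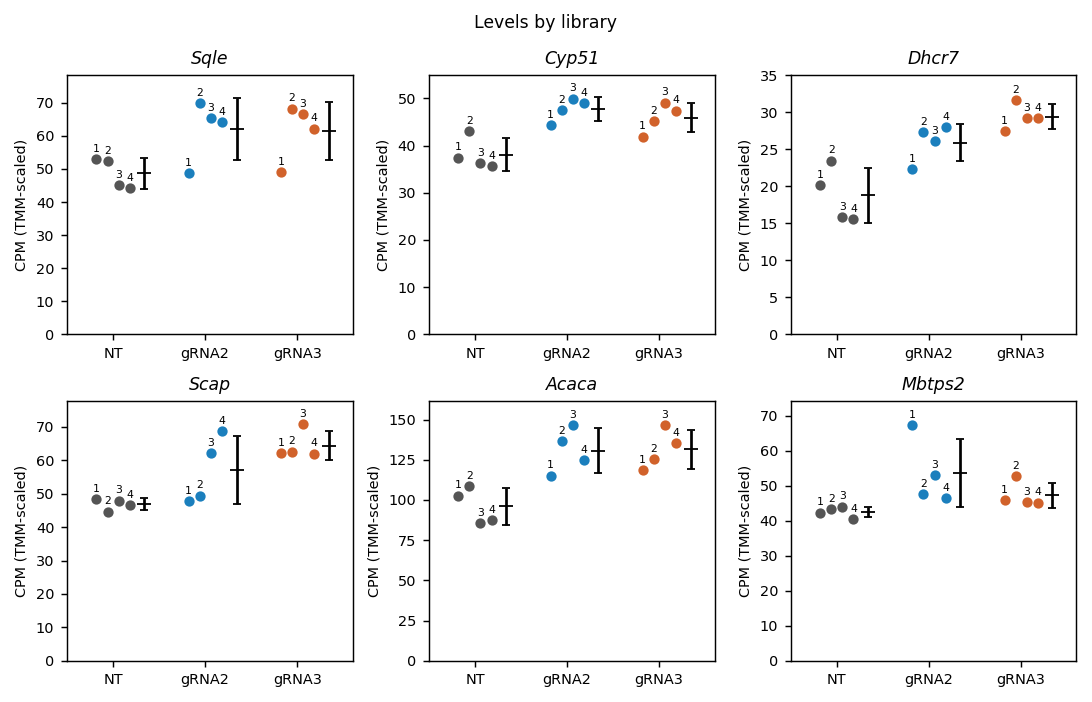
CPM in each library (numbered points are replicates) with the mean and SD beside them for the 5 members called relative to the transcriptome and for Mbtps2, on axes that start at 0. For Acaca and Mbtps2 every guide library lies above every NT library.

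Among the genes that regulate SREBPs, Scap rose. Scap encodes the escort that carries SREBPs out of the endoplasmic reticulum, and lies at chr9:110333288-110384949 (plus strand, 24 listed exons). Its level was 48.5, 44.6, 47.9 and 46.7 CPM in NT, 47.8, 49.4, 62.2 and 68.7 CPM under Mycn-gRNA2, and 62.2, 62.6, 70.7 and 62.0 CPM with Mycn-gRNA3. Mycn-gRNA2 replicate 1 lay within the NT range, replicate 2 just above it, and the other 6 guide libraries well above. Scap rose by 0.37 ± 0.09 (SE, edgeR adjusted p = 0.00814). With Mycn-gRNA3 the change was 0.46 (edgeR adjusted p = 0.00582), and with Mycn-gRNA2 it was 0.28 (edgeR adjusted p = 0.0764), which was not called.

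The proteases that cut SREBPs differed in sign, and neither passed the test with both guides together. Mbtps2, the site-2 protease gene, stood at 42.4, 43.3, 44.0 and 40.4 CPM in NT, 67.4, 47.5, 53.0 and 46.5 CPM under Mycn-gRNA2, and 46.0, 52.7, 45.3 and 45.2 CPM with Mycn-gRNA3. All 8 guide libraries lay above all 4 NT libraries, and the log2 fold change was 0.24 ± 0.09 (SE, edgeR adjusted p = 0.0614). Mbtps1, the site-1 protease gene, stood at 312, 315, 307 and 317 CPM in NT, 301, 275, 270.1 and 287 CPM under Mycn-gRNA2, and 305, 284, 282 and 291 CPM under Mycn-gRNA3. All 8 guide libraries lay below all of NT, with a log2 change of -0.12 ± 0.05 (SE, edgeR adjusted p = 0.0649). Groups were apart in this way for 2 members above (Acaca and Mbtps2) and 1 below (Mbtps1), beside 8.55% of all tested genes above and 6.87% below.

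Srebf2, the gene of the SREBP that drives sterol synthesis, stood at 156 to 170 CPM in NT, 97.8 to 188 CPM under Mycn-gRNA2 and 143 to 183 CPM under Mycn-gRNA3. The groups overlapped, and its log2 fold change was -0.01 ± 0.13 (SE, edgeR adjusted p = 0.973). Srebf1, whose product leans to fatty acid genes, stood at 49.3, 50.2, 43.0 and 41.5 CPM in NT, 33.9, 51.9, 49.5 and 58.1 CPM under Mycn-gRNA2, and 60.8, 60.1, 59.2 and 55.3 CPM with Mycn-gRNA3. All Mycn-gRNA3 libraries lay above NT, while Mycn-gRNA2 overlapped with it. Other members, such as Pmvk and Lss, lay above NT in all Mycn-gRNA3 libraries too. The share of all genes apart from NT with either guide alone was not counted. The log2 fold change of Srebf1 was 0.21 ± 0.11 (SE, edgeR adjusted p = 0.172). The log2 ratio of Srebf1 to Srebf2 reads within a library was -1.82 ± 0.148 in NT, -1.67 ± 0.127 for Mycn-gRNA2 and -1.50 ± 0.199 for Mycn-gRNA3 libraries (SD over the 4 of a group). It was 0.24 higher with the guides, with p = 0.0384 in an exact two-sided permutation test over 495 splits. After Benjamini-Hochberg adjustment over 3 such tests the p was 0.0576, which does not pass. The permutation took the guide libraries as independent. Insig1, a retention factor of SCAP, and Stard4, a cytosolic sterol carrier, had log2 fold changes of 0.09 and 0.16 that were not called. Exons of Srebf1 overlap Rai1 on the other strand.

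Promoter windows are shown for Hmgcs1 and Srebf2 because they hold TCACNCCA, the core of the sterol regulatory element that SREBPs bind, and for Scap because it rose and holds CACGTG, an E-box of the kind bound by MYC family proteins.
Hmgcs1, chr13:119690101-119690400, plus strand: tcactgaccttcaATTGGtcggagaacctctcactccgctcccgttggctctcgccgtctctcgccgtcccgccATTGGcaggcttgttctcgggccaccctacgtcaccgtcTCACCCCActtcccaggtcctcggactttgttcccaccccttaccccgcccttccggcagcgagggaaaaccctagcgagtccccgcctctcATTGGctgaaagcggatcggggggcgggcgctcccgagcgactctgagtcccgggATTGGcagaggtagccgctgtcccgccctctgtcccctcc
Srebf2, chr15:82147019-82147318, plus strand: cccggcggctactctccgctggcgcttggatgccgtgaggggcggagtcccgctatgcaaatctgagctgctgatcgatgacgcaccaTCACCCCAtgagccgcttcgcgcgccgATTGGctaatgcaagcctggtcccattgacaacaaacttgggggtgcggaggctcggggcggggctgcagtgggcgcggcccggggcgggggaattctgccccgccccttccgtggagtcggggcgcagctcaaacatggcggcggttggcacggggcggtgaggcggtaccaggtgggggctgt
Scap, chr9:110333038-110333337, plus strand: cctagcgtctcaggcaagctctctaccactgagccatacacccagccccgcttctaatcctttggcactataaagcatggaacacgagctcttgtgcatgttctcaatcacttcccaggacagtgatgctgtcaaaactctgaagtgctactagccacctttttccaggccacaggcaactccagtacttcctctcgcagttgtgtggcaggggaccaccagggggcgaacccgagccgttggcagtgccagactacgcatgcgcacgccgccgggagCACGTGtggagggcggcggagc
Hmgcs1 and Srebf2 each carry 1 TCACNCCA match on the printed strand, and neither gene was called relative to the transcriptome. That motif, searched on both strands, was found for 3 of 26 genes (Hmgcs1, Msmo1 and Srebf2), in 3 of the members' 32 windows and in 4.36% of all windows. CACGTG was found for 5 of 26 genes (Dhcr7, Hsd17b7, Insig1, Sc5d and Scap), in 6 of the members' 32 windows and in 7.15% of all windows. Of these 5 genes, Dhcr7 and Scap were called higher relative to the transcriptome, beside 14.9% of all tested genes. The called share among all genes with CACGTG was not counted, so this is not a result about the motif. For Dhcr7 the match lies in the window of another annotated start than the one printed. The Acaca window holds none of the marked motifs. A match describes letters in the window and is not a measured site.

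Among fatty acid enzymes, Acaca rose. The gene lies at chr11:84195438-84401651 (plus strand, 54 listed exons). Its level was 103, 108, 85.4 and 87.6 CPM in NT, 115, 137, 147 and 125 CPM under Mycn-gRNA2, and 118, 126, 146 and 135 CPM under Mycn-gRNA3. Every guide library lay above every NT library. Acaca rose by 0.45 ± 0.09 (SE, edgeR adjusted p = 0.00191), with nearly equal changes for each guide (0.45 and 0.45, both called).

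The enzymes on either side of the carboxylase were not called. Acly, which makes cytosolic acetyl-CoA from citrate, had a log2 change of -0.03 ± 0.07 (SE). Fasn, the fatty acid synthase, stood at 715, 760.1, 691 and 696 CPM in NT, 487, 765, 808 and 799.6 CPM under Mycn-gRNA2, and 697, 759.7, 885 and 813 CPM with Mycn-gRNA3. Mycn-gRNA2 replicate 1 lay below all of NT and 5 guide libraries above, for a log2 change of 0.07 ± 0.11 (SE). Elovl6, which extends palmitate, had a log2 change of 0.17 ± 0.08 (SE).

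The stearoyl-CoA desaturases Scd1 and Scd2, which make monounsaturated fatty acids, varied widely within NT. Scd1 stood at 38.2, 36.6, 13.6 and 12.9 CPM in NT, 33.3, 51.1, 35.6 and 33.5 CPM under Mycn-gRNA2, and 38.2, 48.3, 37.7 and 37.4 CPM with Mycn-gRNA3. NT replicates 1 and 2 lay among the guide libraries and NT replicates 3 and 4 far below them, a 2.96-fold range within NT. Its log2 change of 0.64 ± 0.27 (SE, edgeR adjusted p = 0.103) was the largest of the 32 and was not called. Scd2 stood at 274, 291, 164 and 176 CPM in NT, 168, 332, 351 and 349 CPM under Mycn-gRNA2, and 241, 306, 395 and 361 CPM under Mycn-gRNA3. Its NT libraries split in the same 2 pairs, and its log2 fold change was 0.47 ± 0.22 (SE, edgeR adjusted p = 0.127). The split is not particular to the desaturases. NT replicates 1 and 2 also lay above NT replicates 3 and 4 for Sqle, Cyp51, Dhcr7 and Acaca, over narrower fold ranges, and not for Scap. The log2 ratio of Scd2 to Scd1 reads was 0.34 lower with the guides (-0.34 as a difference, p = 0.224 in the exact two-sided permutation test). The 2 genes are near copies, so how reads were split between them is uncertain.

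**Figure D4:**
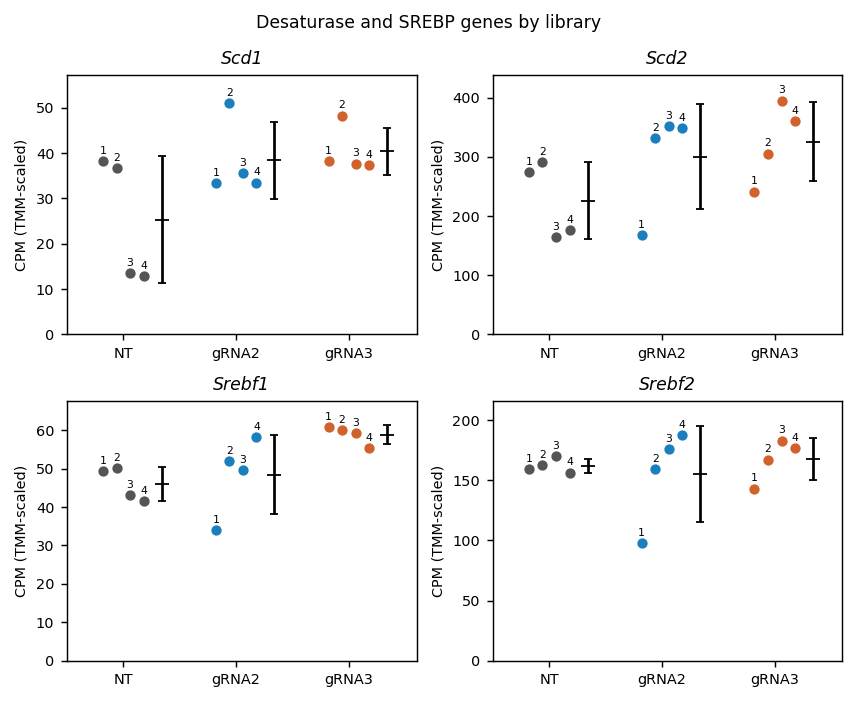
CPM in each library for the desaturases Scd1 and Scd2 and the SREBP genes Srebf1 and Srebf2 (numbered points are replicates, bars are mean and SD, axes start at 0). NT replicates 3 and 4 lie far below NT replicates 1 and 2 for both desaturases, and Mycn-gRNA2 replicate 1 is the lowest of its group for Scd2, Srebf1 and Srebf2.

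Within NT, levels per kilobase of exon spread over a wide range. Acly was the highest of the 32 at 89.3 ± 6.17 CPM per kilobase (SD, n = 4), followed by Fasn at 72.0, Mbtps1 at 71.5, Scd2 at 41.5, Srebf2 at 35.5 and Hmgcs1 at 32.5. Tm7sf2 at 3.03, Stard4 at 2.94 and Hsd17b7 at 2.87 were the lowest. Of the 31 pairs of neighbours in this order, 28 overlapped in their NT libraries. The pairs that did not were Acly and Fasn, Mbtps1 and Scd2, and Acaca and Mbtps2.

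Per ERCC read, 28 of 32 members rose with the guides and 0 fell, and the whole transcriptome shifted the same way. The median log2 fold change over all tested genes was 0.39, and 56.4% of all tested genes were called higher and 0.931% lower, beside 87.5% of the members higher. The median of the members was 0.58, and 26 of 32 lay above the median of all genes. Endogenous reads per ERCC read were 0.39 higher on the log2 scale with the guides (exact two-sided permutation p = 0.00404, adjusted 0.0121). The permutation took the guide libraries as independent, although same-numbered libraries of the guides deviated together. Fewer cells extracted and less RNA per cell in NT cannot be told apart. The 4 members not called were Mvk, Ebp, Ggps1 and Mbtps1. An unadjusted p under 0.05 was reached by 31 members in the higher direction and 0 in the lower. The share of all genes at that threshold was not counted. DESeq2 and limma, the latter on the deposited log2 values, each called 29 higher and 0 lower. Of all genes they tested, 58% and 61.1% were called higher and 0.759% and 0.756% lower.

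On this scale Acaca stood at 6.13, 7.99, 5.61 and 5.49 reads per 1000 ERCC reads in NT, 9.55, 8.73, 12.0 and 12.0 with Mycn-gRNA2 and 11.3, 11.7, 13.9 and 11.1 with Mycn-gRNA3, a rise of 0.84 ± 0.14 (SE, edgeR adjusted p = 7.45e-06). Dhcr7 stood at 1.20, 1.73, 1.04 and 0.979 in NT, 1.85, 1.74, 2.14 and 2.68 with Mycn-gRNA2 and 2.62, 2.95, 2.78 and 2.40 with Mycn-gRNA3, a rise of 0.94 ± 0.16 (SE, edgeR adjusted p = 1.28e-05). In both genes all guide libraries lay above all of NT, as they did for Sqle, Lss and Scd1, 5 members in all beside 11.5% of all tested genes above and 0.235% below. Scd1 rose by 1.01 ± 0.32 (SE, edgeR adjusted p = 0.0224), and Srebf2, which was flat relative to the transcriptome, rose by 0.39 ± 0.16 (SE, edgeR adjusted p = 0.0346), about the shift of all genes. The call of Srebf2 was lost without any of 6 libraries (replicate 1, 3 or 4 of NT, 3 or 4 of Mycn-gRNA2, or 3 of Mycn-gRNA3), that of Acly without NT replicate 1, 3 or 4, that of Scd2 without NT replicate 3 or 4 and that of Insig1 without NT replicate 4.

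Each guide against the same NT libraries gave the following calls, and the 2 comparisons share those libraries. Relative to the transcriptome, 4 members rose with Mycn-gRNA2 (Cyp51, Dhcr7, Mbtps2 and Acaca) and 0 fell, beside 10.1% of all tested genes higher and 7.06% lower. The call of Mbtps2 was lost without any of 8 libraries (any one of NT, replicate 3 of Mycn-gRNA2, or replicate 1, 3 or 4 of Mycn-gRNA3), with an adjusted p up to 0.105. With Mycn-gRNA3, 6 rose (Pmvk, Cyp51, Tm7sf2, Dhcr7, Scap and Acaca) and 0 fell, beside 14.8% higher and 12.2% lower. An unadjusted p under 0.05 was reached by 8 members higher and 1 lower with Mycn-gRNA2, and by 12 and 1 with Mycn-gRNA3. The share of all genes at that threshold was not counted. DESeq2 called 5 higher and 1 lower with Mycn-gRNA2, beside 11.2% and 8.35% of all tested genes. With Mycn-gRNA3 it called 9 higher and 1 lower, beside 15.6% and 13.9%. The edgeR count of higher members for Mycn-gRNA2 was 2 without NT replicate 3 or 4, where 7.37% and 7.46% of all tested genes were called higher. It was 11 without Mycn-gRNA2 replicate 1, where 15.2% were. The count for Mycn-gRNA3 was 3 when replicate 3 or 4 of NT or of Mycn-gRNA3 was left out, beside 10.8% to 11.7% of all tested genes, and 12 without Mycn-gRNA2 replicate 1, which enters through the shared spread, beside 21.9%. Per ERCC read, 17 members rose with Mycn-gRNA2 and 0 fell, beside 26.3% higher and 0.517% lower, and 31 rose with Mycn-gRNA3 (all but Ggps1) and 0 fell, beside 60.7% higher and 0.504% lower. The count of 17 was 8 without NT replicate 1, 3 or 4, beside 12.4% to 16.6% of all tested genes, and 9 without Mycn-gRNA2 replicate 3 or 4, beside 17% and 13%.

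Between the guides, edgeR called 0 members on either scale. The background was 0% of all tested genes in both directions relative to the transcriptome, and 0.0069% higher and 0% lower per ERCC read. An unadjusted p under 0.05 was reached by 2 members higher and 1 lower with Mycn-gRNA3 relative to the transcriptome and by 5 higher per ERCC read. The share of all genes at that threshold was not counted. DESeq2 called 0 members, beside 0.0069% of all tested genes higher and 0% lower on either scale. Without Mycn-gRNA2 replicate 4, edgeR called 10 members higher with Mycn-gRNA3 per ERCC read, beside 13.6% of all tested genes. The largest difference was that of Tm7sf2, at 0.61 ± 0.23 on the log2 scale relative to the transcriptome (SE, edgeR adjusted p = 0.549), and a p above the threshold does not show that the guides act alike.

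Libraries also differed by base composition, which was looked at after Mycn-gRNA2 replicate 1 had been seen to stand apart. In that library the median log2 level minus the NT mean was 0.07 in the GC-poorest of 5 equal bins of genes and -0.31 in the GC-richest bin. In the Mycn-gRNA3 libraries it ran the other way, from -0.18 to -0.13 in the poorest bin and from 0.12 to 0.17 in the richest, as it did in Mycn-gRNA2 replicate 4, with -0.15 and 0.15. Mycn-gRNA2 replicates 2 and 3 lay at -0.04 and -0.05 in the poorest bin and at 0.01 and 0.03 in the richest. Members ranged from 40.0% GC (Mbtps2) to 59.1% (Scap). The 5 members that were highest of their group in Mycn-gRNA2 replicate 1 were Mbtps2, Ggps1 (40.1% GC), Sc5d (42.9%), Nsdhl (45.8%) and Mbtps1 (50.2%). The 25 that were lowest there ran from 41.9% GC (Idi1) to 59.1% (Scap), so members poor in GC such as Idi1, Hmgcs1, Stard4 and Hsd17b7 were among them. With a GC curve removed per library, 10 members were called higher and 0 lower relative to the transcriptome, beside 2320 higher and 1892 lower of all 14497 tested genes: Sqle, Lss, Cyp51, Nsdhl, Sc5d, Dhcr7, Scap, Mbtps2, Acaca and Elovl6. The 5 genes called without this correction are among them.

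**Figure D5:**
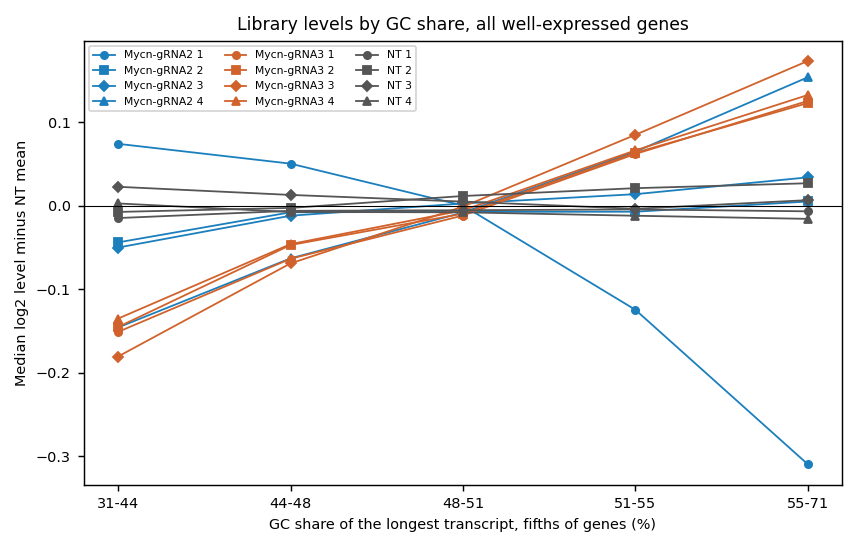
Median log2 level minus the NT mean in 5 bins of genes by the GC share of their longest transcript (x axis, %), one line per library, over all genes above a minimum level. Mycn-gRNA2 replicate 1 falls to -0.31 in the GC-richest bin while the other guide libraries lie at or above 0 there.

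Of 40 further lipid genes, 37 could be tested, and relative to the transcriptome 8 rose and 6 fell with both guides, beside 14.9% of all tested genes higher and 13% lower, with a median log2 fold change of 0.06. The 6 with the lowest adjusted p are given. Fads2, the delta-6 desaturase of polyunsaturated fatty acids, averaged 7.84 CPM in NT, 17.6 CPM under Mycn-gRNA2 and 16.6 CPM with Mycn-gRNA3, a rise of 1.13 ± 0.12 (SE, edgeR adjusted p = 1.89e-05), larger than that of any of the 32 members. Acat1, a mitochondrial thiolase, rose by 0.45, Tmem97, a sterol-responsive membrane protein, by 0.45, and Abcg1, a sterol exporter, by 0.72. Acacb, the carboxylase isoform tied to fatty acid oxidation, fell by 0.47 and Soat1, which esterifies cholesterol for storage, fell by 0.30. Per ERCC read 26 of the 37 rose and 0 fell, beside 56.4% of all tested genes higher and 0.931% lower.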

How the data were processed

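PolyA RNA of 12 libraries was sequenced. The authors deposited raw read counts per gene and ERCC RNA. Per the submitters' processing notes, Trim Galore 0.4.0, featureCounts of Subread 1.5.0, edgeR 3.32.1 and mm10 were used. No source used here gives the aligner, annotation or strand setting. A deposited table of log2 values (12042 genes, all 32 members) was checked on the files to be log2(count + 0.5) less 1 constant for each library, and served only as an alternative with limma 3.58.1.

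Groups came from sample titles. The count tests used edgeR 4.0.16 in R 4.3.3 (filterByExpr, robust quasi-likelihood F test, a term per group, all 12 libraries), scaled by TMM over endogenous genes or by ERCC totals, with Benjamini-Hochberg adjustment over 14497 genes. The edgeR fit relative to the transcriptome was also run on simulated counts, drawn independently for each library. Those counts held no GC trend, shared deviation or ERCC scaling, so they cannot vouch for the p-values given here. Alternatives were DESeq2 1.42.0, DESeq2 size factors, TMM over ERCC RNAs, no filter, a replicate term, only the groups compared, each library left out, and, added after the data were seen, a GC correction with the longest GENCODE transcript. Ratios of reads used a pseudocount of 0.5. Depth leaves each member at least 59 reads per library. Replicate pairs differed beyond sampling noise (chi-square per degree of freedom 8.57 to 72.8 over 18 pairs). Same-numbered libraries deviated together between the 2 Mycn guides (correlation 0.17 to 0.64, 4 of 4 pairs over 0.1). Unlike-numbered pairs of these guides ran from -0.64 to 0.47. The highest of them was Mycn-gRNA2 replicate 4 with Mycn-gRNA3 replicate 3, so the match of the replicates 4 (0.17) is uncertain. From the same-numbered values, the numbers were taken to pair the 2 guide groups, and not with NT (2 of 4 pairs for each guide). The main fits and the permutation tests did not use this pairing and treat those libraries as independent. The replicate term among the alternatives covered NT as well.

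Members, lists and tests were chosen with earlier results of these data known. Named genes are the 32 members, Mycn and, of the further lipid genes, up to 6 called with the lowest adjusted p. ERCC RNAs were added after extraction, so unequal cell counting or RNA yield enters the levels per ERCC read.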

Additional observations from a re-analysis of the deposited data

Results flagged for a closer look

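In 105 groups of 4 libraries (the 32 members and 3 library-wide measures in each group), 9 members' values stood far from the other 3 of their group by Dixon's test, and chance flags about 1 group in 20. Of the 9, 5 came from Mycn-gRNA2 replicate 1, which was low for Fdps (29.8 CPM), Acly (314.6 CPM), Fasn (487 CPM) and Scd2 (168 CPM) and high for Sc5d (35.6 CPM). Replicate 2 was high for Scd1 with Mycn-gRNA2 (51.1 CPM) and Mycn-gRNA3 (48.3 CPM) and for Mbtps2 with Mycn-gRNA3 (52.7 CPM). Mycn-gRNA3 replicate 3 was high for Scap (70.7 CPM). The part of base composition in these values was not tested.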

How the results depend on the processing

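With both guides, relative to the transcriptome, 5 members were higher and 0 lower. The count of higher members was 8 under the replicate block, 10 with the GC correction and 4 to 14 with single libraries left out. Of all tested genes, 16%, 16% and 11.1% to 21.9% were called higher in those fits. The count of lower members was 1 with DESeq2 and 0 to 2 with single libraries left out, where 13.9% and 8.76% to 20.2% of all tested genes were called lower. For Mycn-gRNA2 against NT the higher count was 2 with only the groups compared and 2 to 11 with single libraries left out. Of all tested genes, 6.86% and 7.03% to 15.2% were called higher there. The lower count was 1 with DESeq2 and 0 to 1 with single libraries left out, beside 8.35% and 4.03% to 13% of all tested genes. For Mycn-gRNA3 against NT the higher count was 12 with only the groups compared, 10 with the GC correction and 3 to 12 with single libraries left out. Of all tested genes, 22.5%, 14.4% and 10.8% to 21.9% were called higher there. The lower count was 1 with DESeq2 size factors, 1 with only the groups compared, 1 with DESeq2 and 0 to 1 with single libraries left out. Beside these stood 12.6%, 19.7%, 13.9% and 7.45% to 19.2% of all tested genes. Per ERCC read, the Mycn-gRNA2 count ranged from 8 to 25 with single libraries left out, and that between the guides from 0 to 10. The shares of all tested genes called higher ranged from 12.4% to 53.6% and from 0% to 13.6%. The cause was not tested. Under the replicate block, endogenous reads per ERCC read (0.39) and the Srebf1 to Srebf2 ratio (0.24) had p = 0.125 in an exact sign-flip test. This is the smallest p that 4 pairs allow. Under that block the counts per guide were 5 and 9 relative to the transcriptome, beside 11% and 16.3% of all tested genes higher. Per ERCC read they were 17 and 31, beside 21.6% and 56.6%. The count between the guides stayed at 0. The Srebf1 to Srebf2 difference ran from 0.18 to 0.28 with single libraries left out. Of the fold changes of single members (by gene, comparison and scale), 25 lost their call and 62 gained one under at least 1 alternative, in 110 and 131 pairs of a value and an alternative, and 0 called values changed sign. Cyp51, Dhcr7, Scap and Acaca kept their calls with both guides relative to the transcriptome without each library in turn.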
